A study of Mus musculus with 18 samples.

Results

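The mouse mitochondrial genome is annotated with 37 genes, and these are the 37 of 48709 genes in the deposited count table whose chromosome is given as MT. They are 13 protein genes, 2 ribosomal RNA genes and 22 transfer RNA genes. Counts were listed for all 13 protein genes in all 18 libraries, and all 13 passed the filter on low counts. The 2 ribosomal RNA genes and the 22 transfer RNA genes were listed at 0 in all 18 libraries. Polyadenylated RNA of the left ventricle had been sequenced in 3 groups of 6 libraries from 12-week-old male wild-type C57BL/6J mice. The first group was given isoproterenol, an agonist of β-adrenergic receptors, at 30 mg/kg/day from an osmotic pump, together with 50 mg/kg of minocycline injected into the peritoneum each day. Minocycline is a tetracycline antibiotic. The second group was given isoproterenol alone and the third, the control, neither drug, with saline in place of what was left out. Hearts were collected after 21 days. A group given minocycline without isoproterenol was not analysed here. The protocol text speaks of pooled RNA while each library has a number of its own, so the number of animals behind a library is uncertain and p-values measure the spread between libraries.

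Mitochondria keep a small circular genome of their own. Its protein genes encode core subunits of the respiratory chain and of ATP synthase, and every other subunit is encoded in the nucleus and imported. Both strands are transcribed into long precursors, from which transfer RNAs are cut out, and the messenger and ribosomal RNAs between them are released by those cuts. Most mitochondrial messenger RNAs then receive a short poly(A) tail. Heart muscle is dense in mitochondria, and their transcripts are among the most abundant in it. Tetracyclines bind bacterial ribosomes, to which mitochondrial ribosomes are related.

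Of the 13 protein genes, 7 encode subunits of complex I, the NADH dehydrogenase: mt-Nd1, mt-Nd2, mt-Nd3, mt-Nd4l, mt-Nd4, mt-Nd5 and mt-Nd6. The gene mt-Cytb encodes cytochrome b of complex III. Complex IV, cytochrome c oxidase, has mt-Co1, mt-Co2 and mt-Co3, and complex V, ATP synthase, has mt-Atp8 and mt-Atp6. Of the 13 genes 12 lie on the plus strand of the reference sequence, and mt-Nd6 alone lies on the minus strand. The transfer RNA genes are divided as 14 on the plus and 8 on the minus strand. All 37 positions and strands in the table were the same as in GENCODE release M21 on GRCm38, whose sequence is used here.

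Neighbouring protein genes overlap at 4 places, and at 3 of them more than a single base is shared, so that a read lying there belongs to both genes. These stretches are shown because they bear on how counts can be divided between neighbours. They are written 5′ to 3′ on the plus strand of GRCm38, with the shared bases in capitals and 12 bases on either side. The gene mt-Atp8 shares 43 bases with mt-Atp6 (MT:7927-7969, printed MT:7915-7981), mt-Nd4l shares 7 with mt-Nd4 (MT:10167-10173, printed MT:10155-10185), and mt-Nd5 shares 14 with mt-Nd6 on opposite strands (MT:13552-13565, printed MT:13540-13577). The fourth overlap is 1 base, between mt-Atp6 and mt-Co3.
mt-Atp8 and mt-Atp6: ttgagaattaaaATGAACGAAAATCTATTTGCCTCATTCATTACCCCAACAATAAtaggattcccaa
mt-Nd4l and mt-Nd4: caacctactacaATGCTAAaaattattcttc
mt-Nd5 and mt-Nd6: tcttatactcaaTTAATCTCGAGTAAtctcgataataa

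In the first of these the capitals open with the ATG of mt-Atp6 and close with the TAA of mt-Atp8, and in the second they open with the ATG of mt-Nd4 and close with the TAA of mt-Nd4l. Each of these pairs is carried on a shared messenger RNA, as is known in mammals. The protocol selected RNA by its poly(A) tail. In at least 3 of the 13 genes the tail also makes the stop codon, because the gene as annotated ends in T alone. The other 10 genes are annotated to end in a whole TAA or TAG. In mt-Nd1 and mt-Nd2 that TAG runs into the next transfer RNA gene on the same strand. The gene mt-Nd1 ends at 3707 and mt-Ti starts at 3706, and mt-Nd2 ends at 4951 and mt-Tw starts at 4950. Their messenger RNAs may therefore end before the TAG is whole, which was not tested. The last 18 bases of the 3 genes are shown next to those of mt-Co1, each on the coding strand, with the terminal T or the stop codon in capitals.
mt-Co3, MT:9373-9390: tttattgatgaggatctT
mt-Nd4, MT:11527-11544: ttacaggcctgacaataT
mt-Cytb, MT:15271-15288: tactaaaattatatccaT
mt-Co1, MT:6855-6872: tatgtaaaagtaaaaTAA

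The base composition of mt-Nd6 sets it apart from the other protein genes. On its coding strand it holds 28.1% G and 6.0% C, while the 12 plus-strand genes hold 5.9 to 16.1% G.

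The ribosomal RNA genes mt-Rnr1 (MT:70-1024) and mt-Rnr2 (MT:1094-2675) and the transfer RNA genes gave no value to compare. Genes of other short or structured RNAs were listed in the same way. Of 6059 genes annotated as microRNA, snoRNA, snRNA, miscellaneous RNA, scaRNA or nuclear ribosomal RNA, 1 had counts, 2 in all. Whether such genes were left out when reads were counted is not given in the sources used here.

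Nuclear DNA holds copies of mitochondrial sequence, and reads can match both. A search of the annotated transcripts found 11 nuclear genes that match 9 of the protein genes at 95% identity or more over at least 150 aligned bases, and 7 of these pairs reached 99%. On chromosome 1, Gm10925 matched mt-Atp6 over 678 of 678 bases, Gm28661 matched mt-Co2 over 681 of 681 and Gm28437 matched mt-Co3 over 783 of 783. Of the 11 nuclear genes, 10 were listed at 0 and Gm4076 had 2 counts in all libraries together. Few genes annotated as pseudogenes had counts at all, 141 of 7026 processed and 99 of 2306 unprocessed ones. For mt-Nd1, mt-Nd6, mt-Cytb and mt-Atp8 no such copy was found among the annotated transcripts. Nuclear sequence outside them was not searched, including that between Gm10925 (ending at 24614651) and Gm28661 (starting at 24614885). A copy of mt-Atp8 or of the other 3 genes could thus have been missed. How reads that fit both places were assigned is not given in the sources used here.

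Mitochondrial genes took 42.7 to 47.7% of the counts in the 6 libraries of isoproterenol and minocycline (median 44.1%), 40.1 to 46.2% in the isoproterenol libraries (median 43.6%) and 43.0 to 46.2% in the control libraries (median 45.8%). The means were 44.6 ± 2.06%, 43.2 ± 2.14% and 45.4 ± 1.23% (SD, n = 6 each) in that order of groups. The ranges overlapped in every pair of groups, and the means lay 2.14 percentage points lower with isoproterenol than in control and 0.796 points lower with both drugs than in control. Without library 1, 2 or 5 of isoproterenol and minocycline the second difference was -0.415, -0.535 and -0.418 points, in that order, and without library 4 of that group or control 6 it was -1.42 and -1.27 points. Set against the nuclear genes, there were 0.806 ± 0.0683 mitochondrial counts per nuclear count with both drugs, 0.763 ± 0.0664 with isoproterenol and 0.831 ± 0.0402 in control.

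**Figure D1:**
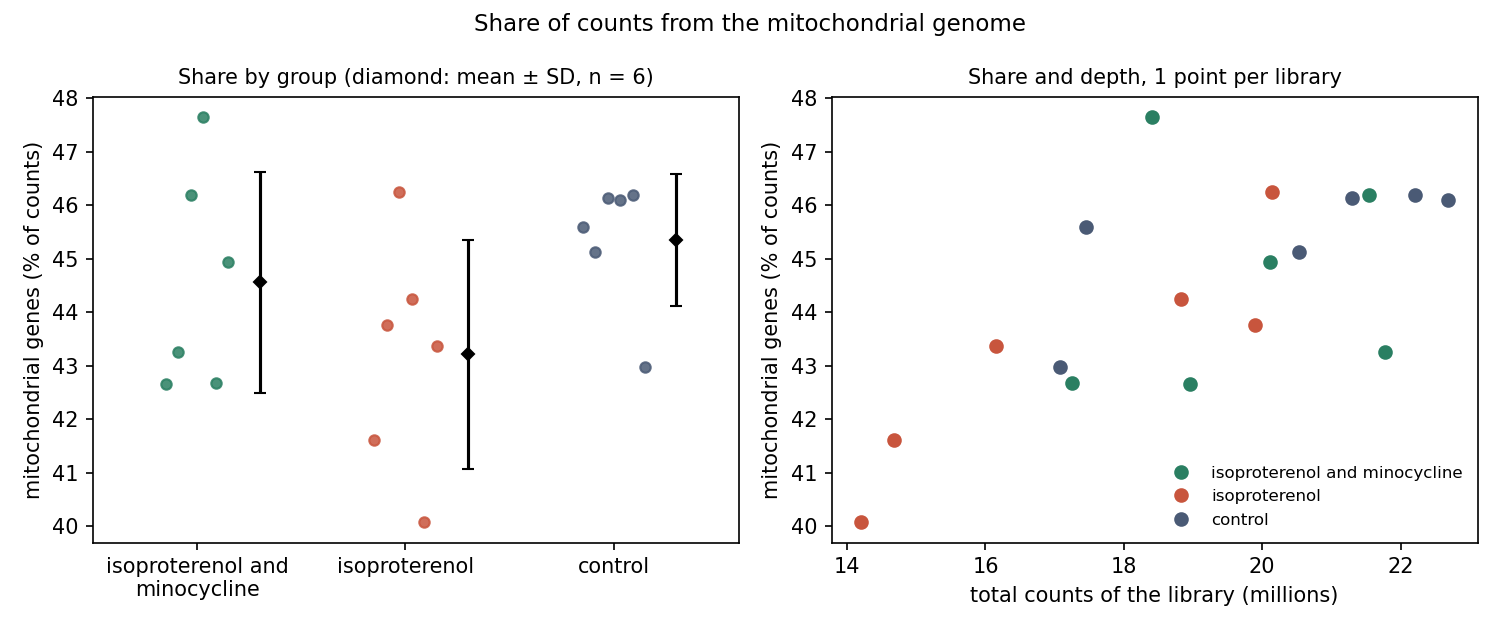
Share of each library's counts that came from mitochondrial genes (y axis, percent), by group on the left and against the library's total counts on the right. Points are libraries, diamonds are means ± SD (n = 6), and the axes do not start at 0. The isoproterenol libraries with the lowest shares, 40.1% and 41.6%, also had the fewest counts.

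Libraries held 14203041 to 22688664 counts. Isoproterenol 5 and isoproterenol 1, with the lowest shares of their group at 40.1% and 41.6%, were also the shallowest of all 18, at 14203041 and 14684646 counts. Control 6, lowest in share among the controls at 43.0%, was the shallowest of them at 17079823 counts. Control 1, at 17448573 counts, had 45.6%. With both drugs the shallowest was library 5, at 17246214 counts and 42.67%, beside a lowest share of 42.65% in library 1. Library 4 of that group, at 18408033 counts, had the highest share, 47.7%. The part of depth in these shares was not tested. Markers of heart muscle cells (Myh6, Tnnt2, Actc1, Tnni3, Myl2, Ryr2, Ttn and Mb) moved with the groups as well. They summed to 11.02 to 12.1% of the nuclear counts with both drugs, 10.8 to 11.4% with isoproterenol and 12.3 to 12.8% in control, and neither treated group overlapped the control. Of the 8 markers, 3 were called lower with both drugs than in control and 2 with isoproterenol than in control, and none was at 0. Of all 13281 genes tested, 9.05% were called lower with both drugs and 5.62% with isoproterenol, each against control. In each comparison with control, 7 of the 8 log2 fold changes lay below 0 and 1 above. The highest was 0.0023 with both drugs and 0.21 with isoproterenol. The sum leans on Myh6, the most counted of the 8. The 5 fibroblast markers summed to 0.125 to 0.224%, 0.136 to 0.195% and 0.101 to 0.142% of the nuclear counts in the same order, with 4 called higher with both drugs and 2 with isoproterenol, each against control. Of all genes tested, 10.2% were called higher with both drugs and 6.94% with isoproterenol, each against control. The 5 macrophage markers summed to 0.0194 to 0.0313%, 0.0215 to 0.0306% and 0.0154 to 0.0201% in the same order of groups, with 4 called higher in each treated group than in control. Of 5 smooth muscle and pericyte markers, which summed to 0.126 to 0.195%, 0.121 to 0.163% and 0.0991 to 0.132%, 3 were called higher with both drugs and 2 with isoproterenol, each against control. Of 5 endothelial markers (0.0960 to 0.154%, 0.0981 to 0.122% and 0.0822 to 0.107%), 1 was called higher with both drugs than in control. None of the 3 atrial and 3 adipocyte markers was called in any comparison. In bulk tissue, fewer cells of a type and less RNA per cell cannot be told apart, and the part of cell composition in the values that follow was not tested.

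Levels differed far more between the genes than between the treatments. The gene mt-Co1 (MT:5328-6872), which encodes the catalytic subunit of cytochrome c oxidase, took 14.6% of all counts and was the most counted gene of the table. Of the 10 most counted genes 9 were mitochondrial, the exception being Myh6, the α-myosin heavy chain, in place 8. Per length, in CPM (counts relative to library size, with sizes scaled by the TMM method) and per kilobase, averaged over the 18 libraries, the order began with mt-Co1 at 94414, mt-Co2 at 79934, mt-Co3 at 57274 and mt-Atp6 at 51686. Each of these was above the next in all 18 libraries. Next came mt-Cytb at 35878 and mt-Nd1 at 35432, which could not be put in order, since mt-Cytb was the higher in 9 of 18 libraries.

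The other complex I genes on the plus strand and mt-Atp8 were lower, still on the scale of CPM per kilobase. They ran from mt-Nd4 at 25476 over mt-Nd2 at 22512, mt-Atp8 at 18189, mt-Nd3 at 12614 and mt-Nd5 at 10906 to mt-Nd4l at 10427. Neighbours in this stretch kept their order in 13 to 17 of 18 libraries, and the ranges of neighbours overlapped. The genes mt-Atp8 (204 bases) and mt-Nd4l (297 bases) are short beside paired reads of 150 bases. Each shares a messenger RNA with a longer neighbour, so a lower value need not mean less RNA. The parts of gene length and of overlapping reads in their place were not tested. The gene mt-Nd6 was last at 430, and its range did not overlap that of any other gene. The 12 plus-strand genes averaged 88.1 times the level of mt-Nd6, and the lowest of them, mt-Nd4l, stood 24.2 times above it. Among the plus-strand genes the highest stood 9.05 times above the lowest. Treatment of strand in the counting is not given in the sources used here, so reads of mt-Nd6 and reads from the opposite strand of its locus cannot be told apart. All these levels are of RNA selected by its poly(A) tail, which most but not all mitochondrial messenger RNAs receive. Whether the 13 messenger RNAs were captured alike was not tested.

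**Figure D2:**
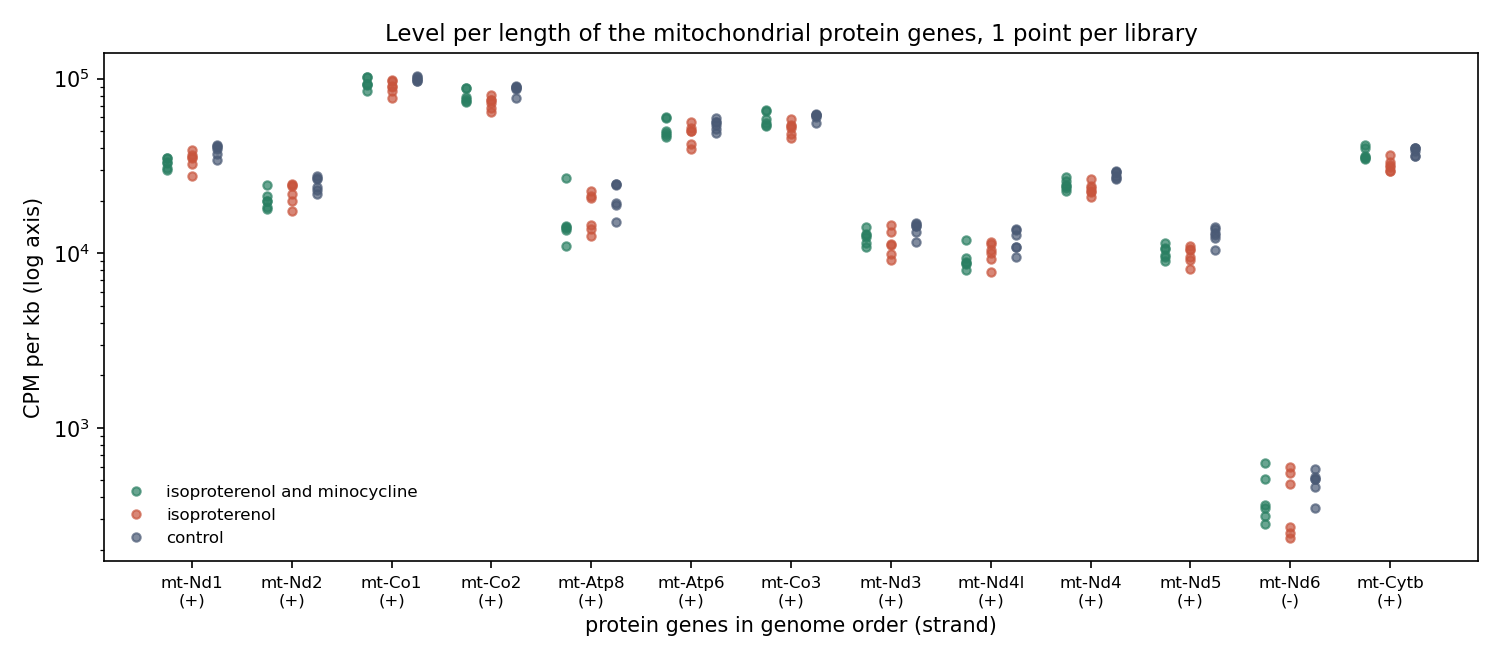
Level per length (CPM per kilobase, log axis) of the 13 protein genes in genome order with their strand, 1 point per library, coloured by group. The gene mt-Nd6 on the minus strand sits between 234 and 630, and the lowest value of any plus-strand gene is 7781.

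The spread between libraries was smallest in control. The coefficient of variation of a gene's CPM within a group had a median over the 13 genes of 9.38% with both drugs, 11.5% with isoproterenol and 7.48% in control, and for 10 of the 13 genes it was lowest in control. The gene mt-Nd6, the least counted of the 13, varied most with isoproterenol, at 41.1%, and mt-Atp8 varied most with both drugs, at 36.5%. In CPM, 11 of the 13 genes were highest of their group in library 3 of isoproterenol and minocycline and 12 in isoproterenol 3, while 12 were lowest in isoproterenol 5 and 10 in control 6. As unscaled shares of counts, 11 were highest in isoproterenol 3, 8 lowest in isoproterenol 5 and 9 lowest in control 6. With both drugs the unscaled share was highest in library 3 for 5 genes and in library 4 for 7, so that count depends on the scaling.

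Isoproterenol alone was compared with control to see what sustained β-adrenergic stimulation does to mitochondrial transcripts. All 13 log2 fold changes were below 0, under each of the scalings tried, and 5 genes passed the test as lower: mt-Nd4 and mt-Nd5 of complex I, mt-Cytb of complex III, and mt-Co2 and mt-Co3 of complex IV. Of all 13281 genes tested, 5.62% were called lower and 6.94% higher in this comparison. The median log2 fold change of the 13 genes was -0.26, against 0.0011 over all genes tested. The changes were small, at most 1.30-fold, and 9 of the 13 genes had an unadjusted p below 0.05 in edgeR's quasi-likelihood test. The same held for 3670 of all 13281 genes tested.

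The gene mt-Nd4 (MT:10167-11544), a subunit of the proton-pumping membrane arm of complex I, was at 28914, 32029 and 36609 CPM (lowest, median and highest library) with isoproterenol and at 36859, 39313 and 40559 CPM in control. No isoproterenol library reached the lowest control library, and mt-Nd4 was the 1 of 13 genes whose CPM did not overlap between these groups. Of all genes tested, 3.25% lay lower with isoproterenol without overlap. It fell 1.20-fold (log2 fold change -0.27, SE 0.058, adjusted p = 0.00413, which like every adjusted p below comes from edgeR's quasi-likelihood test and is adjusted by Benjamini-Hochberg over all genes tested). As an unscaled share of all counts it took 3.37 ± 0.156% with isoproterenol and 3.67 ± 0.103% in control, and these shares did overlap.

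The gene mt-Nd5 (MT:11742-13565), another subunit of that arm, gave the largest change of the 5. It was at 14858, 18292 and 20192 CPM with isoproterenol and at 18987, 23578 and 25891 CPM in control. Most control libraries lay above the highest isoproterenol library, with control 2 the exception. The log2 fold change was -0.37 (SE 0.081, adjusted p = 0.00414).

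Cytochrome b, the product of mt-Cytb (MT:14145-15288), carries electrons from ubiquinol within complex III. Its gene was at 33629, 36148 and 41660 CPM with isoproterenol and at 41390, 44721 and 46003 CPM in control, so that only isoproterenol 3, the highest of its group, reached into the control range. It fell by 0.27 on the log2 scale (SE 0.060, adjusted p = 0.00571).

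In complex IV, mt-Co2 (MT:7013-7696) encodes the subunit that takes electrons from cytochrome c. It was at 44156, 50771 and 54847 CPM with isoproterenol and at 52700, 60697 and 62029 CPM in control. The overlap came from control 6, which lay apart from the other 5 control libraries. The log2 fold change was -0.26 (SE 0.064, adjusted p = 0.00999). For mt-Co3 (MT:8607-9390), a core subunit without metal centres, the values were 36054, 41548 and 45903 CPM with isoproterenol and 43420, 48407 and 49020 CPM in control, again with control 6 lowest (log2 fold change -0.22, SE 0.065, adjusted p = 0.0336). Without any one of isoproterenol 1, 2, 5 and 6 or control 1 to 5 the adjusted p of mt-Co3 was 0.0501 to 0.0971. The most abundant gene, mt-Co1, averaged 138042 ± 11895 CPM with isoproterenol and 153761 ± 4270 CPM in control (SD, n = 6 each), and its log2 fold change of -0.16 did not pass the test (SE 0.058, adjusted p = 0.0814). Among the alternatives run, DESeq2 alone called mt-Co1 lower.

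The other 7 genes had log2 fold changes between -0.30 and -0.17 with adjusted p between 0.0726 and 0.481. Among them were mt-Atp6 (MT:7927-8607), the proton channel subunit of ATP synthase, at -0.17 (SE 0.085), and mt-Nd3 (MT:9459-9806), a small complex I subunit, at -0.26 (SE 0.096). The gene mt-Nd3 was at 3200, 3892 and 5060 CPM with isoproterenol and at 4053, 4996 and 5159 CPM in control. Limma voom called mt-Nd3 lower, as did the fits without control 6 or without isoproterenol 3. Without the 4 libraries above 80 CPM of Myl7, an atrial myosin light chain (library 2 of isoproterenol and minocycline, isoproterenol 5, control 5 and control 6), 2 genes were called lower, mt-Nd4 and mt-Co2. With libraries scaled by their total counts alone, 3 genes were called lower, with smaller changes: mt-Nd4 at -0.13 (adjusted p = 0.0284), mt-Nd5 at -0.23 and mt-Cytb at -0.13 on the log2 scale, while the median of all genes moved to 0.14 and all 13 genes lay below it.

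**Figure D3:**
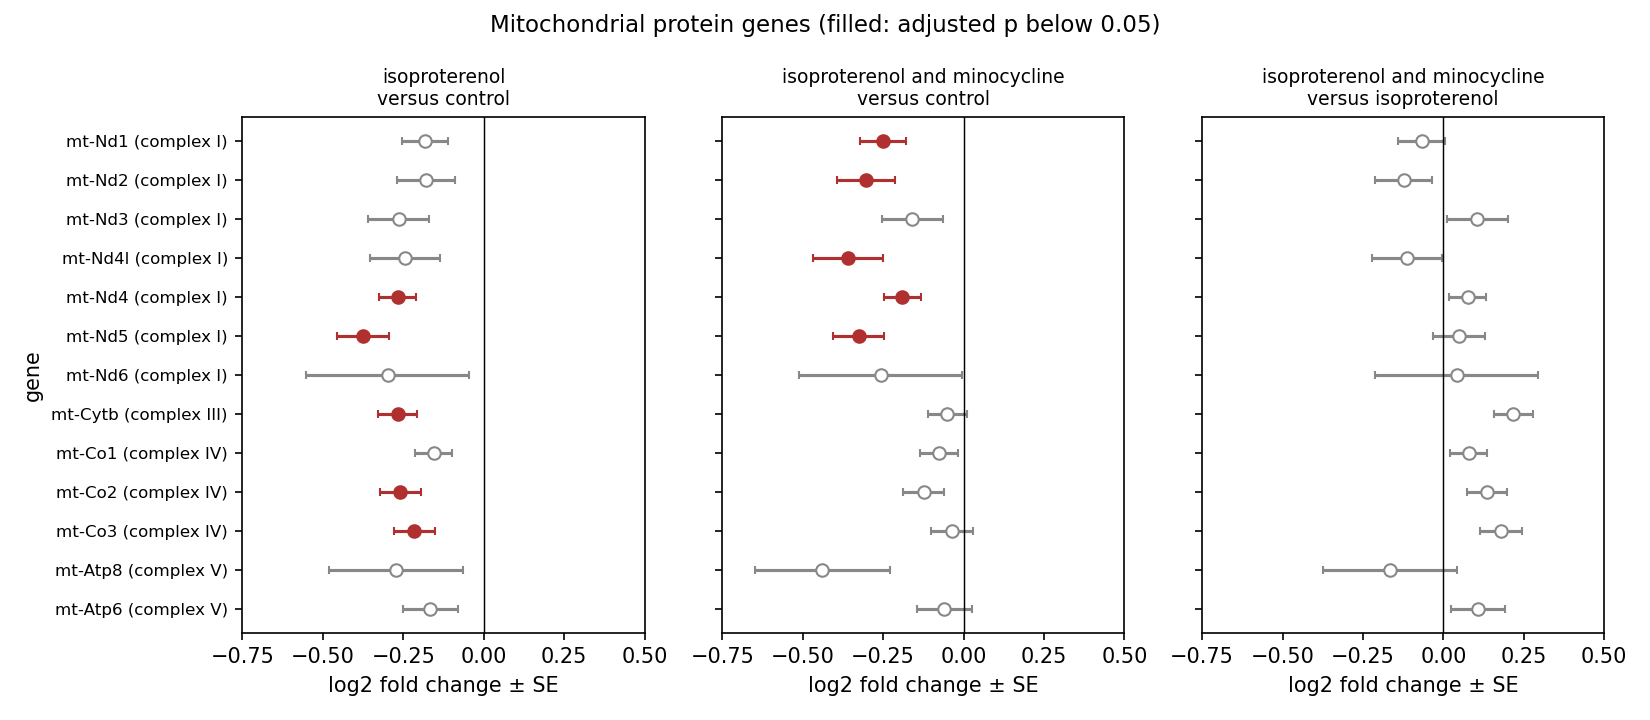
Log2 fold changes ± SE (x axis) of the 13 protein genes, by gene and complex, for isoproterenol versus control, isoproterenol and minocycline versus control, and isoproterenol and minocycline versus isoproterenol, from 6 libraries a group. Filled points have an adjusted p below 0.05, 5 in each comparison with control and 0 in the third. All 13 points lie below 0 in both comparisons with control, although mt-Co1, mt-Co3, mt-Atp6 and mt-Cytb lie above 0 with both drugs when libraries are scaled by total counts alone.

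With both drugs the called genes were all from complex I. Against control, mt-Nd1, mt-Nd2, mt-Nd4l, mt-Nd4 and mt-Nd5 were called lower, 5 of 13, and no gene higher, where 9.05% of all genes tested were called lower and 10.2% higher. All 13 log2 fold changes were below 0, with a median of -0.19 against 0.0035 over all genes tested, although mt-Co1, mt-Co3, mt-Atp6 and mt-Cytb lay between 0.024 and 0.063 when libraries were scaled by total counts alone. Under that scaling the median of all genes was 0.11, and the 13 genes lay below it.

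The gene mt-Nd1 (MT:2751-3707) encodes a membrane subunit near the quinone site of complex I. It was at 28596, 31704 and 33482 CPM with both drugs (lowest, median and highest library) and at 32814, 38409 and 40010 CPM in control, where control 6 was the single library within the range of the treated group (log2 fold change -0.25, SE 0.072, adjusted p = 0.0186). The gene mt-Nd2 (MT:3914-4951), a subunit of the membrane arm, was at 18613, 20614 and 25473 CPM with both drugs and at 22725, 26337 and 28717 CPM in control. Library 3 of the treated group was its highest and lay above 3 control libraries, 1, 2 and 6 (log2 fold change -0.30, SE 0.090, adjusted p = 0.0221).

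The short gene mt-Nd4l (MT:9877-10173), which encodes a small membrane subunit, was at 2387, 2631 and 3544 CPM with both drugs and at 2824, 3518 and 4106 CPM in control. Library 3 of the treated group again stood above its other 5 libraries (log2 fold change -0.36, SE 0.11, adjusted p = 0.0260). For mt-Nd4 the values were 31474, 33670 and 37617 CPM with both drugs and 36859, 39313 and 40559 CPM in control (log2 fold change -0.19, SE 0.058, adjusted p = 0.0243). For mt-Nd5 they were 16540, 18538 and 20813 CPM with both drugs and 18987, 23578 and 25891 CPM in control (log2 fold change -0.33, SE 0.081, adjusted p = 0.00736). Library 3 of the treated group was again the highest for both, and for mt-Nd4 it was the single one within the control range.

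The genes of complexes III and IV that were called lower with isoproterenol alone did not pass the test here. The gene mt-Cytb averaged 42516 ± 3299 CPM with both drugs and 44042 ± 2159 CPM in control (SD, n = 6 each; log2 fold change -0.051, SE 0.060, adjusted p = 0.592). The values of mt-Co2 were 54670 ± 4635 and 59585 ± 3464 CPM, those of mt-Co3 46313 ± 4343 and 47490 ± 2113 CPM and those of mt-Co1 145805 ± 10010 and 153761 ± 4270 CPM in the same order. Their log2 fold changes were -0.12, -0.036 and -0.077, with adjusted p between 0.176 and 0.736. The 5 calls rested on few libraries: 1 gene, mt-Nd5, was called without library 2 of isoproterenol and minocycline, and 1, mt-Nd1, without the 4 libraries high in Myl7. Without library 6 of isoproterenol and minocycline, control 3 or control 4, 2 genes were called each time, mt-Nd1 and mt-Nd5, and without library 4 of isoproterenol and minocycline or control 5 all but mt-Nd4l were. The adjusted p of the lost genes was 0.0521 to 0.0732 in these fits that left out a single library.

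Added minocycline was compared with isoproterenol alone to see whether the antibiotic changed the response. None of the 13 genes passed edgeR's test, 0 by each other tool run, and 0.0527% of all genes tested were called in either direction. At an unadjusted p below 0.05 there were 3, mt-Cytb, mt-Co3 and mt-Co2, beside 1010 of all 13281 genes tested. The median log2 fold change was 0.076, against -0.0026 over all genes tested, with 9 of 13 above 0. The largest belonged to mt-Cytb, at 39721, 40897 and 47354 CPM with both drugs and at 33629, 36148 and 41660 CPM with isoproterenol (lowest, median and highest library). Isoproterenol 3 was the single isoproterenol library above the lowest library with both drugs, and the log2 fold change was 0.22 (SE 0.060, adjusted p = 0.342). For mt-Co3 it was 0.18 (SE 0.065, adjusted p = 0.524) and for mt-Co2 0.14 (SE 0.064, adjusted p = 0.642). The 4 genes below 0 were mt-Nd1 (-0.068), mt-Nd2 (-0.12), mt-Nd4l (-0.11) and mt-Atp8 (-0.17). A difference between the complexes in this response was not tested.

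The make-up of the mitochondrial counts does not depend on how libraries are scaled. Complex IV genes held 56.0 ± 1.05% of them with both drugs, 55.1 ± 0.791% with isoproterenol and 54.3 ± 1.24% in control (SD, n = 6 each). Complex I genes held 25.5 ± 0.726%, 27.3 ± 0.633% and 27.9 ± 0.858% in the same order of groups. The complex I share ran over 24.7 to 26.7% with both drugs, 26.4 to 28.0% with isoproterenol and 26.5 to 28.8% in control, so the group with both drugs overlapped the others at its upper end. As a share of all counts, complex I genes took 10.8 to 11.90% with both drugs and 11.95 to 13.3% in control, narrowly without overlap. With isoproterenol they took 10.6 to 12.8%, which overlapped both of these ranges. Complex V genes held 8.77 ± 0.497%, 8.78 ± 0.463% and 8.60 ± 0.371% of the mitochondrial counts. These are sums over genes and were not tested.

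The share of mt-Cytb within the mitochondrial counts was 9.39, 9.64 and 9.96% with both drugs (lowest, median and highest library), 8.28, 8.87 and 9.44% with isoproterenol and 8.96, 9.25 and 9.27% in control. Every library with both drugs lay above every control library, and isoproterenol 5 was the single isoproterenol library within the range of the group with both drugs. The share of mt-Nd1 averaged 7.14 ± 0.349% with both drugs, 7.92 ± 0.249% with isoproterenol and 7.77 ± 0.286% in control, with overlap between the groups. That of mt-Nd2 was 4.78 ± 0.304%, 5.52 ± 0.322% and 5.41 ± 0.346% in the same order. The share of mt-Nd5 averaged 4.21 ± 0.195% with both drugs, 4.31 ± 0.212% with isoproterenol and 4.83 ± 0.439% in control, lower in both treated groups, with overlap. The share of mt-Co3 was 10.5 ± 0.299% with both drugs, 9.86 ± 0.184% with isoproterenol and 9.89 ± 0.356% in control.

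**Figure D4:**
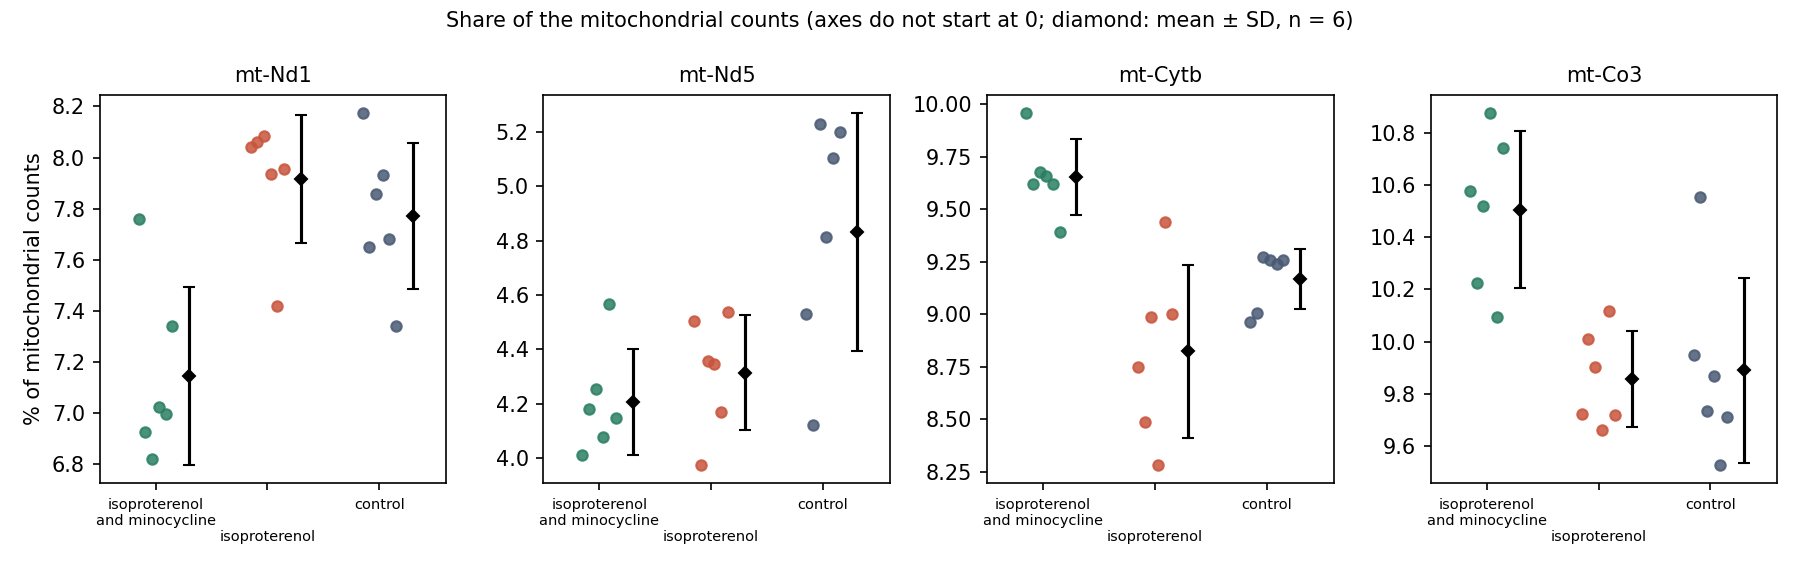
Share of the mitochondrial counts (y axes, percent, not starting at 0) taken by mt-Nd1, mt-Nd5, mt-Cytb and mt-Co3, 1 point per library, with diamonds for the mean ± SD (n = 6). For mt-Cytb the libraries with both drugs lie between 9.39 and 9.96%, above all control libraries, and for mt-Nd5 both treated groups have means below control.

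Genes that share a messenger RNA did not keep a fixed ratio of counts. There were 8.91 ± 2.43 counts of mt-Atp8 (MT:7766-7969) per 100 counts of mt-Atp6 with both drugs, 10.8 ± 1.63 with isoproterenol and 11.6 ± 1.57 in control (SD, n = 6 each). Over single libraries the ratio ran from 6.51 to 13.4 with both drugs, and that of library 3 was the highest, above every control library. The gene mt-Atp8, which encodes a small membrane subunit of ATP synthase, was at 2234, 2870 and 5528 CPM with both drugs, 2555, 3580 and 4651 CPM with isoproterenol and 3089, 4470 and 5109 CPM in control. Its log2 fold change with both drugs against control, -0.44, was the lowest of the 13 but had an SE of 0.21 (adjusted p = 0.151). Without library 3 of isoproterenol and minocycline the gene was called lower (adjusted p = 0.00937). Its neighbour mt-Atp6 was at 31354, 33863 and 41200 CPM with both drugs, 27005, 34161 and 38216 CPM with isoproterenol and 33058, 37701 and 40299 CPM in control. The groups overlapped throughout, and the log2 fold change of mt-Atp6 with both drugs against control was -0.059 (SE 0.085, adjusted p = 0.664). Counts of mt-Nd4l per 100 of mt-Nd4 were 8.08 ± 0.803 with both drugs, 9.22 ± 0.815 with isoproterenol and 9.07 ± 0.985 in control.

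The minus strand contributed few of the counts in any group. The gene mt-Nd6 (MT:13552-14070), a complex I subunit, was at 147, 184 and 327 CPM with both drugs, 121, 194 and 308 CPM with isoproterenol and 180, 263 and 299.7 CPM in control (lowest, median and highest library). It made up 0.0473 ± 0.0117%, 0.0486 ± 0.0169% and 0.0526 ± 0.00818% of the mitochondrial counts in the same order. With isoproterenol, libraries 1, 5 and 6 were at 121 to 141 CPM, below every library of the other groups, and libraries 2, 3 and 4 were at 248 to 308 CPM. The former were also shallower, at 14203041 to 16148401 counts against 18825717 to 20145792. These libraries split alike for mt-Atp8, at 2555 to 2952 CPM and 4208 to 4651 CPM. The part of depth in this split was not tested. The log2 fold changes of mt-Nd6 were -0.30 with isoproterenol against control and -0.26 with both drugs against control, each with an SE of 0.25 and not past the test (adjusted p = 0.481 and 0.511). With both drugs against isoproterenol it was 0.041 (SE 0.25, adjusted p = 0.976).

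The nuclear genome encodes the partners of these subunits. Of 79 nuclear genes written down for complexes I, III, IV and V, 77 were tested. With isoproterenol against control 17 fell and none rose, with a median log2 fold change of -0.11 beside 0.0011 over all genes. They were 9 of 36 in complex I, 2 of 9 in complex III, 3 of 16 in complex IV and 3 of 16 in complex V. With both drugs against control 18 fell and 1 rose (median -0.099), and with both drugs against isoproterenol none was called (4 at an unadjusted p below 0.05, and 0 called by DESeq2 and by limma). Between the treated groups 1010 of all 13281 genes had an unadjusted p below 0.05 in edgeR's test. The shares that fell were 22.1% with isoproterenol and 23.4% with both drugs, beside 5.62% and 9.05% of all genes tested. These calls depended on the scaling. With total counts alone 0 fell and 5 rose with isoproterenol against control, and 2 fell and 4 rose with both drugs against control, while 67 and 64 of 77 lay below the median of all genes. Under that scaling the mitochondrial genes remained below 0 with isoproterenol in 13 of 13 cases, though closer to it, with mt-Co1 at -0.015. Without the 4 libraries high in Myl7, 6 nuclear genes fell in each comparison with control. Single libraries moved the counts too. With isoproterenol 10 fell without isoproterenol 2 or control 3, 9 without isoproterenol 5 or control 1 and 8 without control 4, and with both drugs 8 fell without library 2 of that group, 9 without control 1 and 10 without control 4.

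Cox6a2, the heart and muscle form of a regulatory subunit of complex IV, averaged 814 ± 56.7 CPM with isoproterenol and 1015 ± 44.9 CPM in control (SD, n = 6 each; log2 fold change -0.32, SE 0.056, adjusted p = 7.60e-04). Atp5c1, the γ subunit of the rotor of ATP synthase, was at 702 ± 16.1 CPM with isoproterenol and 813 ± 39.8 CPM in control (log2 fold change -0.21, adjusted p = 0.00522), and Atp5h, a stalk subunit, at 486 ± 31.5 and 580.1 ± 32.8 CPM (log2 fold change -0.26, adjusted p = 0.00552). In complex I, Ndufa3 fell in both comparisons, with log2 fold changes of -0.30 with isoproterenol and -0.40 with both drugs (adjusted p = 0.0115 and 8.80e-04). Ndufs4, an accessory subunit whose human gene is mutated in Leigh syndrome, likewise gave -0.21 and -0.19 (adjusted p = 0.0134 and 0.0181). In complex III the core subunit gene Uqcrc1 gave -0.17 and -0.21 (adjusted p = 0.0284 and 0.00571). The nuclear gene that rose with both drugs was Uqcr10, a small complex III subunit, at 212 ± 9.12 CPM with both drugs and 187 ± 13.0 CPM in control (log2 fold change 0.18, adjusted p = 0.0260). Complex II has no mitochondrially encoded subunit, and of its 4 nuclear genes 1, Sdhb, fell with isoproterenol (log2 fold change -0.15, adjusted p = 0.0395), and Sdha and Sdhb fell with both drugs (-0.32 and -0.15, adjusted p = 0.0257 and 0.0299). Several of these calls were lost when a single library was left out. With isoproterenol Sdhb was lost without any one of isoproterenol 1, 2, 4, 5 and 6 or control 1, 3, 4 and 6 (adjusted p = 0.0525 to 0.102), and Uqcrc1 without isoproterenol 2, 4 or 5 or control 1, 4 or 6 (0.0536 to 0.0660). With both drugs Sdhb was lost without library 2 or 4 of that group or control 1, 3 or 4 (0.0555 to 0.0859), Sdha without its library 6 or control 4 or 6 (0.0569 to 0.0630), Uqcr10 without its library 6 or control 2, 4, 5 or 6 (0.0539 to 0.0618), and Ndufs4 without its library 2 (0.0553). With total counts alone, Ndufa3 with both drugs and Uqcr10 were still called, and no other gene named in this paragraph was.

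**Figure D5:**
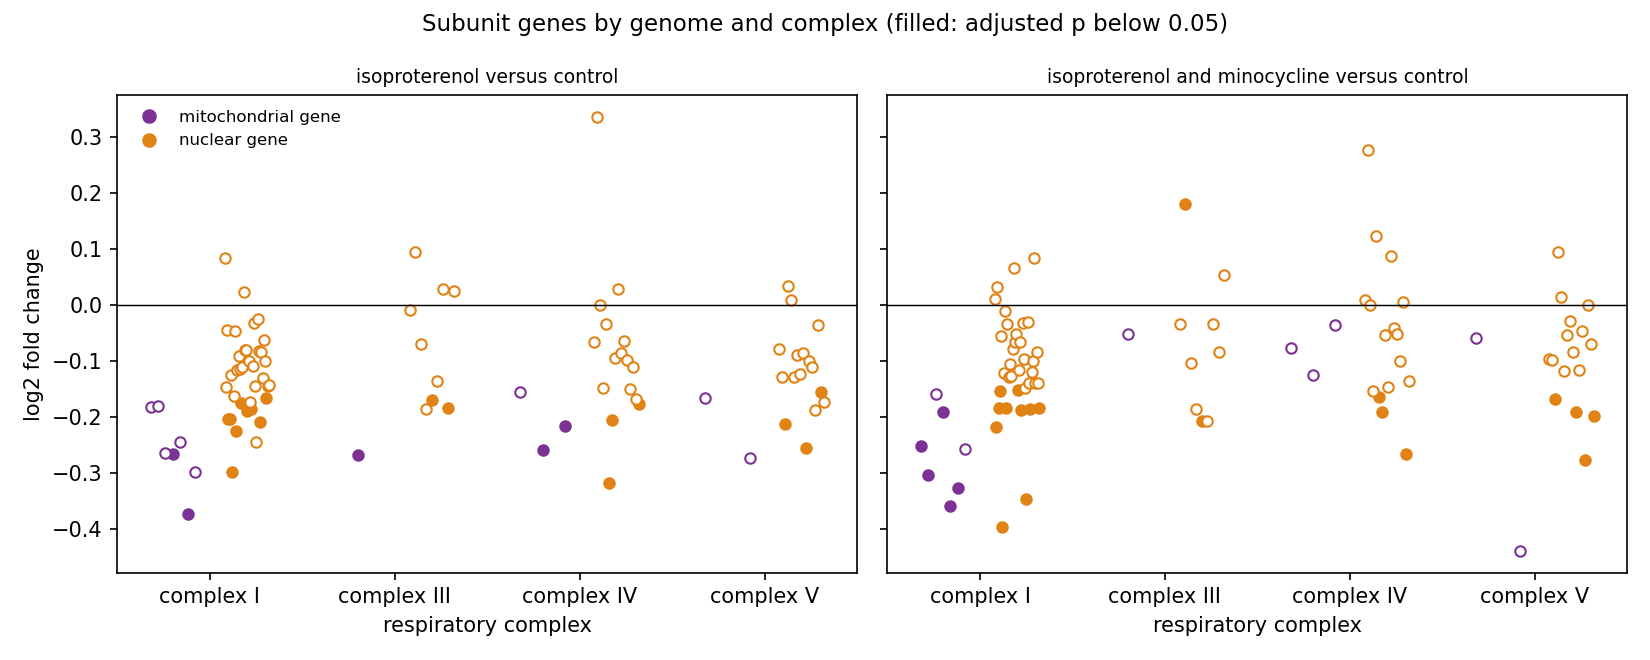
Log2 fold changes (y axis) of mitochondrial and nuclear subunit genes by respiratory complex, for isoproterenol versus control and isoproterenol and minocycline versus control, 1 point per gene. Filled points have an adjusted p below 0.05. With isoproterenol the highest of the 13 mitochondrial genes, mt-Co1, lies at -0.16, and the nuclear genes have a median of -0.11. When libraries are scaled by total counts alone, these values move to -0.015 for mt-Co1 and 0.032 for the nuclear median.

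Of 26 tested genes that transcribe or copy mitochondrial DNA, 1 fell with isoproterenol against control (3.85%, beside 5.62% of all genes tested), 4 fell with both drugs against control (15.4%, beside 9.05%) and none was called between the treated groups (2 at an unadjusted p below 0.05, and 0 called by DESeq2 and by limma). Between those groups 1010 of all 13281 genes had an unadjusted p below 0.05 in edgeR's test. Medians of the 26 genes were -0.076, -0.037 and 0.0027. With total counts alone 0 fell and 1 rose with isoproterenol and 2 fell and 1 rose with both drugs, and without the libraries high in Myl7 0 and 1 fell. With both drugs 2 fell without library 4 or 6 of that group, control 3 or control 4. The mitochondrial RNA polymerase gene Polrmt averaged 23.2 ± 2.35 CPM with both drugs, 22.4 ± 0.856 CPM with isoproterenol and 23.8 ± 1.47 CPM in control, and did not pass the test in any comparison. Tfam, which packages mitochondrial DNA and is needed for its transcription, averaged 20.3 ± 2.75, 20.8 ± 2.99 and 23.05 ± 1.53 CPM in the same order and did not pass it either. Tfb2m, the factor that opens mitochondrial promoters for the polymerase, fell with both drugs, to 32.6 ± 4.95 CPM against 41.9 ± 3.12 CPM in control (log2 fold change -0.36, SE 0.088, adjusted p = 0.00715). Mterf3, a regulator of mitochondrial transcription in mice, was called lower in both comparisons with control, but its annotation overlaps Ptdss1, which makes its counts uncertain. Ppargc1a, the coactivator PGC-1α of mitochondrial biogenesis, spread widely, at 138 ± 80.3, 115 ± 22.7 and 142 ± 88.8 CPM, and was not called.

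Among genes that process or stabilise mitochondrial RNA, more fell than rose against control, though not when libraries were scaled by total counts alone. Of 39 tested, 5 fell (12.8%) and 1 rose (2.56%) with isoproterenol against control, where 5.62% of all genes tested were called lower and 6.94% higher. With both drugs against control 7 fell (17.9%) and 2 rose (5.13%), beside 9.05% and 10.2% of all genes, and none was called between the treated groups (4 at an unadjusted p below 0.05, and 0 called by DESeq2 and by limma). Between those groups 1010 of all 13281 genes had an unadjusted p below 0.05 in edgeR's test. Medians of the 39 genes were -0.10, -0.14 and -0.025. With total counts alone the numbers were 1 fallen and 4 risen with isoproterenol and 3 and 3 with both drugs. Without the libraries high in Myl7, 3 fell and 1 rose with isoproterenol and 4 fell and 0 rose with both drugs. With both drugs 4 fell without library 6 of that group or control 4, and 11 without its library 5. Hsd17b10, a subunit of the enzyme that cuts transfer RNAs from the precursors at their 5′ ends as well as a dehydrogenase of isoleucine breakdown, was at 76.6 ± 5.53 CPM with both drugs, 70.7 ± 1.98 CPM with isoproterenol and 91.3 ± 4.73 CPM in control. It fell in both comparisons with control (log2 fold changes -0.25 with both drugs and -0.37 with isoproterenol, adjusted p = 0.00224 and 9.88e-05), although with total counts alone the call with both drugs was lost. Lrpprc, whose protein binds mitochondrial messenger RNAs and protects them, was at 113 ± 23.7, 120.5 ± 13.5 and 148 ± 12.8 CPM in the same order. It was called lower with both drugs against control (log2 fold change -0.39, SE 0.11, adjusted p = 0.0208) and not with isoproterenol against control (-0.29, SE 0.11, adjusted p = 0.0920). The call with both drugs was lost without library 6 of that group or control 4 (adjusted p = 0.0515 to 0.0527). It was also lost with total counts alone and without the libraries high in Myl7. With isoproterenol against control Lrpprc was called lower in limma voom and in a fit of the 12 libraries compared. Between the treated groups its log2 fold change was -0.095 (adjusted p = 0.859). The annotation of its partner Slirp overlaps Snw1, so its counts are uncertain. Slirp did not pass the test in any comparison, though with total counts alone it was called higher with isoproterenol against control (log2 fold change 0.27). Trmt5, a transfer RNA methyltransferase, rose with isoproterenol to 39.2 ± 4.62 CPM, against 25.1 ± 2.71 CPM in control (log2 fold change 0.64, SE 0.12, adjusted p = 0.00181).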

How the data were processed

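Paired reads of 150 bases were trimmed in CLC Genomics Workbench 21.0.3 (quality limit 0.05, at most 2 ambiguous bases), per the labels' protocols; edgeR appears in the submitters' processing notes. For aligner settings, annotation and strand treatment, the sources used here give nothing. All values start as the whole-number counts per gene deposited by the authors. Shares come from unscaled counts. After filterByExpr, 13281 genes with 99.931 to 99.954% of the counts were fitted over the 18 libraries with TMM scaling, glmQLFit (robust) and glmQLFTest of edgeR 4.0.16 in R 4.3.3 (2-sided), and called at an adjusted p below 0.05. TMM factors moved with group (0.944 to 1.05 with both drugs, 0.998 to 1.13 with isoproterenol, 0.929 to 0.980 in control). The SE is the size of the log2 fold change over the square root of F. Libraries of a group differed beyond sampling noise (chi-square per degree of freedom 5.30 to 33.3). Nuclear copies were sought with blastn 2.17.0 in GENCODE M21 transcripts. The fit was also run on simulated data as a check of the code. How often it finds changes as small as those of the mitochondrial genes is not given here.

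Described in full are genes called in any comparison, the most counted gene, mt-Nd6 and overlapping pairs. From each nuclear list and comparison at most 4 called genes, taken by p, could be named, besides Tfam, Polrmt, Lrpprc, Slirp and Ppargc1a. The members and lists were chosen with earlier results of these data known. As alternatives, DESeq2 1.42.0, limma voom (limma 3.58.1), RLE, upper-quartile and nuclear-gene scaling, 2 other filters, pairwise fits, leaving out each library, and leaving out the 4 libraries above 80 CPM of Myl7 were run. Scaling by total counts alone was added after seeing the data.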

Additional observations from a re-analysis of the deposited data

Results flagged for a closer look

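Of 54 values tested, where chance sets apart about 1 in 20, 5 came from a library that stood apart from the other 5 of its group. In control 6, mitochondrial genes took 43.0% of the counts, with the nearest control library at 45.1%, mt-Co2 was at 52700 CPM (nearest 59805 CPM) and mt-Co3 was at 43420 CPM (nearest 47005 CPM). In library 3 of isoproterenol and minocycline, mt-Atp8 was at 5528 CPM (nearest 2934 CPM) and mt-Nd4l at 3544 CPM (nearest 2781 CPM). Control 6 is among the 4 libraries above 80 CPM of Myl7, at 85.6 CPM, and is the shallowest control library, at 17079823 counts.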

How the results depend on the processing

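With isoproterenol against control, 5 or 6 of the 13 genes were called lower under 8 alternatives, 3 with total counts alone, 2 without the 4 libraries high in Myl7, and 4 to 6 when a library was left out. The call of mt-Nd4 held under all 22 alternatives (its log2 fold change moved to -0.13 with total counts alone), those of mt-Co2, mt-Nd5 and mt-Cytb under 21 and that of mt-Co3 under 11. Without any of control 1 to 5 or isoproterenol 1, 2, 5 or 6 the adjusted p of mt-Co3 was 0.0501 to 0.0971. With both drugs against control, 5 were called under 8 alternatives, 3 with total counts alone, 1 without the libraries high in Myl7, and 1 to 6 when a library was left out. The call of mt-Nd5 held under 21 alternatives, mt-Nd1 under 20 (adjusted p = 0.0568 without library 2 of isoproterenol and minocycline), mt-Nd2 under 17, mt-Nd4 under 16 and mt-Nd4l under 15. With both drugs against isoproterenol, 0 were called under all 22. Shares of counts kept their direction, with differences in percentage points of -2.75 to -1.51 for isoproterenol against control, 0.715 to 1.95 for both drugs against isoproterenol and -1.42 to -0.415 for both drugs against control over all alternatives.

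Directions turned for values near 0. With both drugs against control, scaling by total counts alone gave log2 fold changes of 0.024 for mt-Co1, 0.040 for mt-Atp6, 0.063 for mt-Co3, 0.049 for mt-Cytb, 0.062 for Polrmt and 0.067 for Ppargc1a, and with isoproterenol against control 0.054 for Polrmt. With both drugs against isoproterenol, mt-Nd6 gave -0.013 without the libraries high in Myl7 and -0.13 to 0.19 when a library was left out (below 0 without library 3 or 4 of isoproterenol and minocycline or isoproterenol 1, 5 or 6), and Tfam -0.11 to 0.0064. Ppargc1a with both drugs against control gave 0.14 in limma voom and -0.29 to 0.36 when a library was left out (0.36 without control 4), and with isoproterenol against control -0.43 to 0.090 (0.090 without control 4). Apart from scaling, the cause was not tested. No paired analysis was possible because the library numbers in the labels are not shared between groups. The numbers 1 to 6 used here only count the libraries within a group and pair none of them. Each library held at least 1913 counts of mt-Nd6, the least counted of the 13 genes. Of the nuclear subunits, 17 of which fell with isoproterenol against control, 11 did with no filter on low counts. Of the genes for transcription and replication, 1 of which fell in that comparison, 2 did in a fit of the 12 libraries compared and in limma voom.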
